A study of Mus musculus with 6 samples.

Results

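The 35 genes described here belong to the stress response run by the transcription factor ATF4 and to the supply of amino acids that ATF4 serves. They were selected by gene name from the 36706 genes in the deposited tables, and all 35 were found. Messenger RNA had been sequenced from wild-type mouse dendritic cells grown from bone marrow with 20 ng/mL GM-CSF, with fresh medium on day 3 and day 5. The IFN-γ group had 3 libraries from cells given interferon gamma, the cytokine with which T and natural killer cells activate myeloid cells. The IFN-γ+4-OI group had 3 libraries from cells given IFN-γ and 4-octyl itaconate (4-OI), a cell-permeable ester of itaconate, a metabolite of activated macrophages. All 6 libraries therefore carry IFN-γ, and no library without it was part of the comparison. The sources used here give no strain, age, dose or duration and name no sort of the cells, so a culture can hold several myeloid types. The titles name macrophages where the other labels name dendritic cells. The question of the comparison was what 4-OI changed in cells given IFN-γ.

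ATF4 is the main effector of the integrated stress response. Kinases that sense missing amino acids, unfolded protein, double-stranded RNA or heme shortage phosphorylate the initiation factor eIF2, which lowers general translation while the ATF4 messenger is translated more. ATF4 then pairs with C/EBP proteins and other bZIP factors on genes for amino acid synthesis, amino acid import and folate-dependent one-carbon metabolism, and on genes such as Ddit3, Trib3 and Ppp1r15a that limit or redirect the response. In myeloid cells these enzymes and transporters supply serine, glycine, asparagine, leucine and cystine for protein, nucleotide and glutathione synthesis.

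With 4-OI most transcription factors of this response rose, while genes of serine and proline synthesis and of neutral amino acid transport fell more often than they rose. Of 7 transcription factors 6 were higher and 1 lower. Of the 15 tested enzymes of amino acid synthesis, one-carbon folate metabolism and amino acid transport that passed the test, 6 were higher and 9 lower. Atf4 rose 1.89-fold, Atf5 2.95-fold and Atf3 1.99-fold, while Slc7a5, a leucine transporter, fell 3.22-fold, Aldh18a1, the entry enzyme of proline synthesis, 2.99-fold, and Phgdh, the entry enzyme of serine synthesis, 2.57-fold. Libraries were compared with edgeR's quasi-likelihood test on counts, with Benjamini-Hochberg adjusted p over all 14011 tested genes, and a gene counted as changed below 0.05. Of all tested genes 48.1% passed, 22.7% as higher and 25.4% as lower. Among the 34 tested members, 15 passed as higher (44.1%) and 13 as lower (38.2%), with a median log2 fold change of 0.25 against -0.01 over all tested genes. The remaining member, Cbs, was below the filter on low counts. The 2 groups did not overlap in 30 of the 34 tested members, beside 59.5% of all tested genes, so separate groups were common in this comparison. These RNAs were measured in bulk, where fewer cells of a type and less RNA per cell cannot be told apart.

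Library scaling moved the balance of the calls. Libraries were scaled by TMM factors, which assume that most genes keep their share. With total counts alone the median of all tested genes was -0.27, and 8 members passed as higher and 15 as lower, so that 34.8% of the calls were higher in place of 53.6%. All 8 and 13 of the 15 were calls of the TMM fit in the same direction, and the 2 added were Mthfd1l and Slc38a1, as lower. The 13 falls held under every alternative that was run. Of the 15 rises 8 did: Atf4, Atf3, Atf5, Cebpg, Trib3, Ppp1r15a, Psph and Mthfd2l. Total counts lowered the value of every member, and no alternative raised all values by as much. The alternatives could therefore remove rises more readily than falls, so these counts do not compare like with like.

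**Figure D1:**
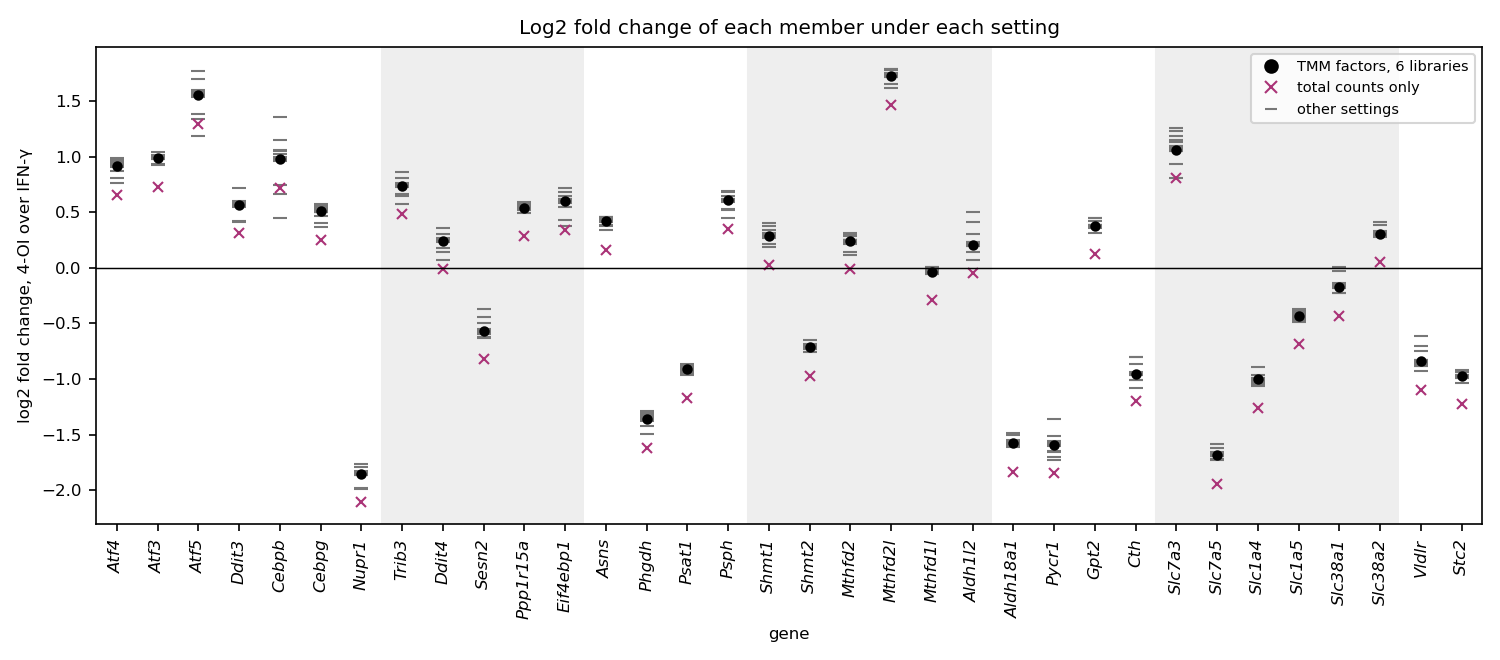
Log2 fold change with 4-OI over IFN-γ (vertical axis) of each tested member (horizontal axis) with TMM factors and 6 libraries (black points), with total counts only (crosses) and under each other setting (grey dashes). The crosses lie about 0.26 below the black points for all members, and the 13 members that fell stay below 0 throughout.

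The libraries held 19656368 to 29244717 counts. A floor of 3 counts is 0.102 to 0.163 CPM, counts scaled to a common library size with TMM factors (counting error only). The labels do not tell whether replicates are separate cultures or mice. The p-values therefore rest on a spread between libraries that may be technical only. The groups separated on the first principal component, with 79.5% of the variance. IFN-γ replicate 1 lay at 32.0 on the second, with 10.7%, against -19.1 and -16.8 for replicates 2 and 3, and 4-OI replicate 3 at -14.4 against 12.4 and 5.84. Of all 35 members, IFN-γ replicate 1 was the lowest library of its group for 20. Without both libraries 17 members passed as higher and 13 as lower. Of the 15 rises 14 were among them and Cebpb was lost, and Shmt1, Mthfd2 and Aldh1l2 were added.

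The element through which ATF4 and C/EBP partners bind is a composite of a C/EBP and an ATF site, and its core was searched as TGATGNAA on both strands. RefSeq promoter sequences of GRCm38.p6 were matched by symbol for 28 members, and the 250 bases before each annotated start were read. In 5 of the 28 members (17.9%) the core was present, against 3.91% of 27025 genes in the table and 2.53% of the 11089 that were tested here. Of these 5, Atf3 and Asns rose and Nupr1, Pycr1 and Vldlr fell, so the same pattern stands before genes that moved in both directions. Its open position, N, is A in Asns and C in Atf3, Nupr1, Pycr1 and Vldlr, of which only Atf3 rose. The windows are shown 5′ to 3′ on the gene's strand, with the core in capitals, because they hold the shared pattern of members that parted. Those of Atf3, Nupr1 and Vldlr hold its reverse complement.
Atf3, chr1:191183425-191183454, minus strand: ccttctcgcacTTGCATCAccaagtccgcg
Asns, chr6:7693214-7693243, minus strand: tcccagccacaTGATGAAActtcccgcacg
Nupr1, chr7:126625562-126625591, minus strand: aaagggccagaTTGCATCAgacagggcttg
Pycr1, chr11:120643833-120643862, minus strand: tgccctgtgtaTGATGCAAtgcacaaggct
Vldlr, chr19:27216809-27216838, plus strand: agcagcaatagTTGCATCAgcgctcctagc
The core begins 110 bases before the start in Atf3 and in Nupr1, 103 in Pycr1, 200 in Vldlr and 23 in Asns. The longer form TGATGNAAT was found in Nupr1 and Pycr1, 7.14% of matched members against 0.910% of all genes and 0.523% of tested genes; it contains the shorter core. The related palindrome TGACGTCA, the site of ATF and CREB factors, was found in 1 matched member, Ppp1r15a, or 3.57%, near the 2.91% of tested genes that hold it, and in 1.77% of all genes.
Ppp1r15a, chr7:45526269-45526291, minus strand: cgcctctccggTGACGTCAgcac
A match describes letters and not binding. A window without one says only that these letters are not in its 250 bases.

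**Figure D2:**
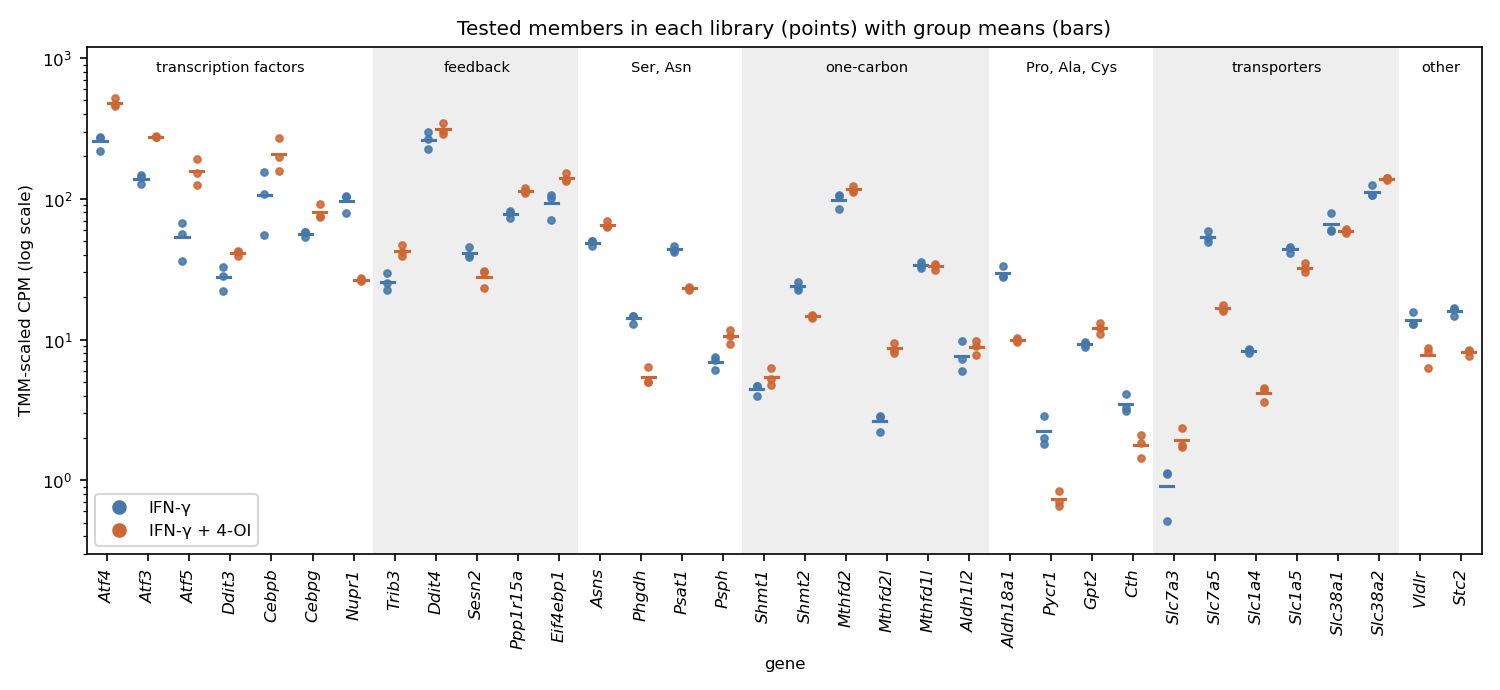
TMM-scaled counts (CPM, vertical log axis) of the 34 tested members (horizontal axis) in each library (points), with group means (bars), in IFN-γ (blue) and IFN-γ+4-OI (orange), shaded by class. The 2 groups lie apart for Atf4, at 219 to 277 and 458 to 520.1 CPM, and in the opposite order for Slc7a5, at 49.7 to 59.2 and 16.1 to 17.7.

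Among the transcription factors, Atf4, the gene of the central factor, had 219, 277 and 272 CPM with IFN-γ and 458, 473 and 520.1 with 4-OI. Every library with 4-OI lay above every library with IFN-γ (log2 fold change 0.92 ± 0.11, SE, n = 3 per group, adjusted p = 3.63e-04 by edgeR). ATF4 protein is controlled largely by translation, which these data do not measure. In the deposited tables the gene lies on chromosome 15, 80139385 to 80141746, plus strand. Atf5, a relative whose messenger is also translated under eIF2 phosphorylation, had 36.4, 55.8 and 67.8 CPM with IFN-γ and 125, 153 and 193 with 4-OI. Its spread was wide within both groups, yet the groups did not overlap (log2 fold change 1.56 ± 0.24 SE, adjusted p = 0.00110 by edgeR). Atf5 shares 4.11% of its exon bases with genes on the opposite strand, and no source used here gives the strand setting of the counting. Atf3, a stress-induced factor that restrains inflammatory genes, went from 128, 148 and 143 CPM to 280.0, 276 and 275. Its libraries with 4-OI were nearly level (log2 fold change 0.99 ± 0.08 SE, adjusted p = 4.64e-05 by edgeR).

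Ddit3, which encodes CHOP, the factor linked to death under lasting stress, had 22.3, 33.0 and 28.1 CPM with IFN-γ and 39.5, 41.8 and 42.5 with 4-OI. The groups lay apart (log2 fold change 0.57 ± 0.14 SE, adjusted p = 0.0107 by edgeR), although with total counts the call was lost at an adjusted p of 0.0761. Its exons share 3.03% and 2.79% of their bases with Mbd6 and Mars1 on the opposite strand. Cebpg, a bZIP partner of ATF4, had 53.5, 57.8 and 58.5 CPM against 75.2, 74.6 and 92.5. The rise was small and clear of the spread (log2 fold change 0.51 ± 0.11 SE, adjusted p = 0.00511 by edgeR). Cebpb, a factor of myeloid differentiation and of inflammatory genes, had 55.6, 109 and 155 CPM with IFN-γ against 159, 197 and 272. The highest IFN-γ library nearly reached the lowest with 4-OI (log2 fold change 0.98 ± 0.35 SE, adjusted p = 0.0482 by edgeR). That call was lost under 9 of 15 alternatives, with adjusted p up to 0.305, among them leaving out IFN-γ replicate 1 or 2 or 4-OI replicate 2 or 3.

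Nupr1 went the other way. It encodes a small stress-induced chromatin cofactor that ATF4 and CHOP are known to induce, and it had 79.5, 106 and 103 CPM with IFN-γ against 26.6, 25.9 and 27.2 with 4-OI. This was the largest fall among the members (log2 fold change -1.85 ± 0.12 SE, adjusted p = 1.55e-05 by edgeR), and the 4-OI libraries differed by little over 1 CPM. The gene lies on chromosome 7, 126222418 to 126224642, minus strand, in the coordinates of the tables. For all 7 factors IFN-γ replicate 1 was the lowest library of its group. Without it 5 of the 7 passed as higher and Nupr1 as lower, with a class median of 0.66 in place of 0.92. Without both libraries that stood apart, the same counts had a class median of 0.45. With total counts 4 of the 7 passed as higher and 1 as lower, and the calls of Ddit3 and Cebpb were lost.

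Feedback and growth-brake genes rose in 3 of 5 cases and fell in 1. Trib3, a pseudokinase that binds ATF4 and curbs it, had 22.4, 29.5 and 25.1 CPM with IFN-γ and 39.2, 42.1 and 47.4 with 4-OI. The groups did not overlap (log2 fold change 0.74 ± 0.12 SE, adjusted p = 0.00179 by edgeR). Ppp1r15a encodes GADD34, the subunit that directs a phosphatase to eIF2 and so ends the response. It rose from 73.4, 79.1 and 81.9 CPM to 113, 119 and 109.6 (log2 fold change 0.54 ± 0.08 SE, adjusted p = 9.45e-04 by edgeR). Eif4ebp1, a repressor of cap-dependent translation, had 70.6, 107 and 102 CPM against 138, 133 and 152. IFN-γ replicate 1 was well below the other IFN-γ libraries (log2 fold change 0.60 ± 0.15 SE, adjusted p = 0.0132 by edgeR). The call was lost with total counts and without 4-OI replicate 3, with adjusted p up to 0.0671.

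Of the brakes on mTORC1, the kinase complex that couples amino acids to growth, 1 fell and 1 did not pass. Sesn2, a leucine-sensing inhibitor of the complex, fell from 45.5, 38.7 and 39.9 CPM to 30.7, 30.2 and 23.1 (log2 fold change -0.57 ± 0.13 SE, adjusted p = 0.00788 by edgeR). Ddit4, which encodes REDD1, another inhibitor, had 225, 266 and 297 CPM against 287, 304 and 343. Its groups overlapped and it did not pass (log2 fold change 0.25 ± 0.12 SE, adjusted p = 0.134 by edgeR).

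**Figure D3:**
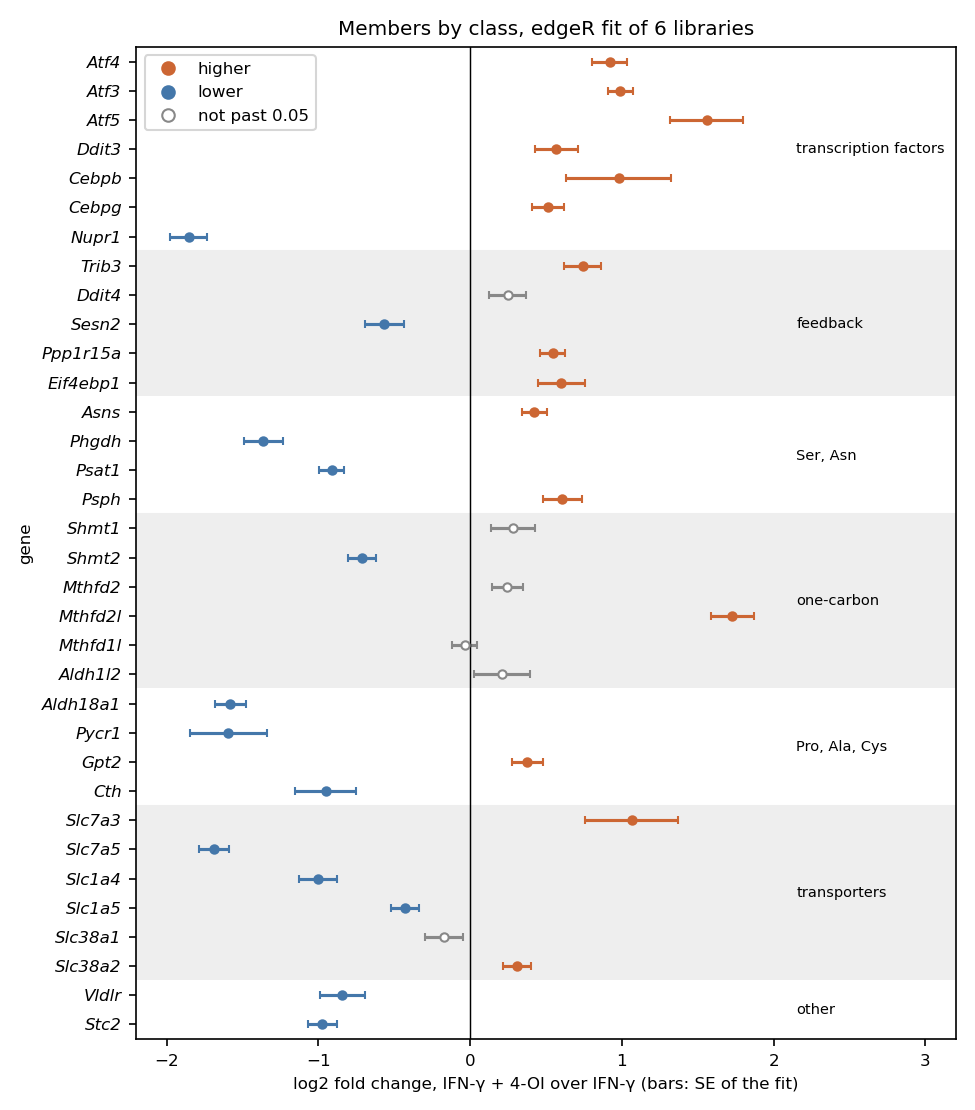
Log2 fold change with 4-OI over IFN-γ (horizontal axis) with its SE (bars) for each tested member (vertical axis), ordered by class, from the edgeR fit of 6 libraries. Filled orange and blue points passed as higher and lower and open grey points did not pass; 6 of the 7 factors lie right of 0, and Nupr1 at -1.85.

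The enzymes that make serine divided along the pathway. Phgdh, whose product starts the branch from glycolysis, had 12.98, 14.6 and 14.8 CPM with IFN-γ and 4.99, 6.41 and 4.98 with 4-OI. All 3 libraries with 4-OI were far below the lowest with IFN-γ (log2 fold change -1.36 ± 0.13 SE, adjusted p = 9.02e-05 by edgeR). Psat1, the transaminase of the next step, fell from 41.8, 43.3 and 46.0 CPM to 23.4, 22.5 and 23.8 (log2 fold change -0.91 ± 0.08 SE, adjusted p = 6.36e-05 by edgeR). Psph, the phosphatase of the last step, rose from 6.05, 7.20 and 7.51 CPM to 9.33, 10.6 and 11.7 (log2 fold change 0.61 ± 0.13 SE, adjusted p = 0.00550 by edgeR). Asns, asparagine synthetase and a classic target of ATF4, had 46.1, 50.1 and 50.2 CPM against 64.1, 63.1 and 69.2. Its groups lay apart, and the size of the rise was small (log2 fold change 0.42 ± 0.08 SE, adjusted p = 0.00384 by edgeR), and with total counts its adjusted p was 0.123.

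Of 6 one-carbon enzymes 1 rose, 1 fell and 4 did not pass. Shmt2, the mitochondrial enzyme that moves a carbon from serine to folate, fell from 22.6, 25.7 and 23.6 CPM to 14.7, 15.1 and 14.1. The groups were well separated (log2 fold change -0.71 ± 0.09 SE, adjusted p = 3.83e-04 by edgeR). Mthfd2, the mitochondrial dehydrogenase and cyclohydrolase that works next, had 85.03, 104 and 106 CPM against 111, 116 and 122. It did not pass (log2 fold change 0.25 ± 0.10 SE, adjusted p = 0.0847 by edgeR). Mthfd2l, its less abundant relative, had 2.85, 2.21 and 2.80 CPM with IFN-γ and 8.41, 8.03 and 9.51 with 4-OI. This was the largest rise among the members (log2 fold change 1.73 ± 0.14 SE, adjusted p = 4.55e-05 by edgeR). Per length, Mthfd2 stayed far above it: the ratio of their TPM (levels scaled for length) was 35.7, 56.5 and 45.2 in the IFN-γ libraries and 15.8, 17.3 and 15.4 in those given 4-OI. Mthfd1l, which releases formate from mitochondria, had 33.9, 32.5 and 35.4 CPM against 34.4, 33.5 and 31.5, with overlapping groups (log2 fold change -0.04 ± 0.08 SE, adjusted p = 0.751 by edgeR). Shmt1, the cytosolic form of serine hydroxymethyltransferase, and Aldh1l2, a mitochondrial folate oxidoreductase, were low, at 3.97 to 6.24 and 6.01 to 9.82 CPM over the 6 libraries, and did not pass (adjusted p by edgeR 0.141 and 0.379). Shmt1 shares 5.92% of its exon bases with Smcr8 on the opposite strand.

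Proline synthesis had some of the steepest falls. Aldh18a1, which encodes the synthase that commits glutamate to proline, had 33.2, 27.8 and 28.4 CPM with IFN-γ and 9.66, 10.2 and 9.97 with 4-OI. The libraries with 4-OI were almost level (log2 fold change -1.58 ± 0.10 SE, adjusted p = 1.33e-05 by edgeR). Pycr1, the mitochondrial reductase of the last step, was low in both groups, at 1.82, 2.85 and 1.995 CPM against 0.705, 0.832 and 0.659 (log2 fold change -1.59 ± 0.25 SE, adjusted p = 0.00131 by edgeR). It shares 14.1% of its exon bases with Gm17586 on the opposite strand, a gene with 2 to 5 counts per library. Prodh, outside the 35, which degrades proline, was lower at -1.87 on the log2 scale (adjusted p by edgeR 1.96e-05).

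Gpt2, the mitochondrial alanine transaminase, rose little, from 9.34, 9.67 and 8.83 CPM to 12.05, 13.1 and 10.997 (log2 fold change 0.38 ± 0.10 SE, adjusted p = 0.0173 by edgeR). The call was lost with total counts and without IFN-γ replicate 3 or 4-OI replicate 1 or 2, with adjusted p up to 0.436. Cth, which makes cysteine in the transsulfuration pathway, fell from 3.24, 4.07 and 3.10 CPM to 1.84, 2.10 and 1.44 (log2 fold change -0.95 ± 0.20 SE, adjusted p = 0.00537 by edgeR). Cbs, the enzyme before it, had 2, 0 and 1 counts with IFN-γ and 0 in all 3 libraries with 4-OI, so it was at or under the floor of 3 counts in both groups.

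Of 6 transporters 2 were higher, 3 lower and 1 did not pass. Slc7a5 encodes LAT1, which exchanges glutamine for leucine and other large neutral amino acids. It had 59.2, 49.7 and 52.5 CPM with IFN-γ and 17.7, 16.4 and 16.1 with 4-OI, with a wide gap between the groups (log2 fold change -1.69 ± 0.10 SE, adjusted p = 8.73e-06 by edgeR). In the tables its place is chromosome 8, 122607885 to 122634425, minus strand. Slc1a4, a carrier of alanine, serine and cysteine, had 8.39, 8.59 and 7.98 CPM against 4.56, 3.58 and 4.37 (log2 fold change -1.004 ± 0.12 SE, adjusted p = 3.63e-04 by edgeR). Slc1a5, the glutamine carrier ASCT2, fell less, from 41.0, 45.8 and 44.5 CPM to 30.2, 35.04 and 32.2 (log2 fold change -0.43 ± 0.09 SE, adjusted p = 0.00582 by edgeR).

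Slc38a2 encodes SNAT2, a sodium-coupled importer that is induced when amino acids run short. It had 125, 107 and 106 CPM with IFN-γ and 141, 141 and 136 with 4-OI (log2 fold change 0.31 ± 0.09 SE, adjusted p = 0.0227 by edgeR). That call was lost under 5 alternatives, with adjusted p up to 0.730: total counts, and leaving out IFN-γ replicate 2 or 3 or 4-OI replicate 1 or 2. Slc38a1, its relative SNAT1, had 79.6, 59.4 and 59.9 CPM against 60.6, 59.4 and 56.8, so only IFN-γ replicate 1 stood above the rest (log2 fold change -0.17 ± 0.13 SE, adjusted p = 0.297 by edgeR). Slc7a3, a carrier of arginine and lysine, was low, at 1.11, 1.12 and 0.509 CPM against 2.33, 1.74 and 1.77 (log2 fold change 1.06 ± 0.31 SE, adjusted p = 0.0223 by edgeR). Its call was lost with total counts and without 4-OI replicate 1 or 3, with adjusted p up to 0.0730, and it shares 1.40% of its exon bases with Snx12 on the same strand.

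LAT1 works only when joined to the heavy chain 4F2hc, the product of Slc3a2, which also carries xCT, the cystine importer that Slc7a11 encodes. Both of these genes, outside the 35, rose: Slc3a2 from 354 ± 36.8 to 870.1 ± 33.1 CPM (SD, n = 3 per group; log2 fold change 1.30, adjusted p = 3.67e-05 by edgeR) and Slc7a11 from 509.7 ± 112 to 1574 ± 74.3 CPM (log2 fold change 1.63, adjusted p = 1.01e-04 by edgeR). Per length, Slc3a2 exceeded Slc7a5 by 1.86, 2.62 and 2.55 times in TPM with IFN-γ and by 16.8, 18.3 and 19.9 times with 4-OI. Slc7a11 exceeded Slc7a5 by 4.03, 3.22 and 3.31 times against 35.1, 34.98 and 35.6. The ratios of the groups lie far apart for both pairs. Slc7a11 and the genes of glutathione synthesis are also known targets of NRF2.

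**Figure D4:**
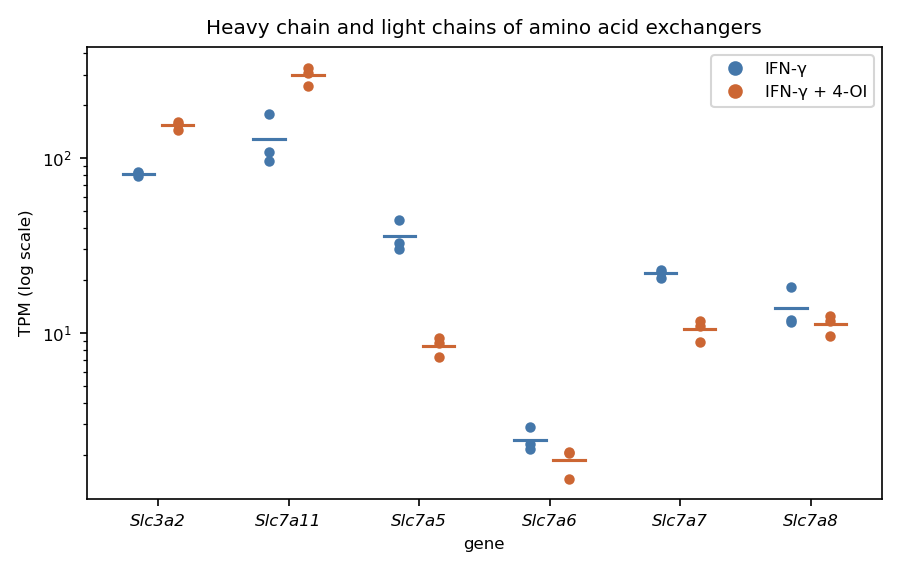
Deposited length-scaled levels (TPM, vertical log axis) of the heavy chain gene Slc3a2 and 5 light chain genes (horizontal axis) in each library (points), with group means (bars). Slc3a2 and Slc7a11 lie higher with 4-OI and Slc7a5 lower, at 7.26 to 9.37 TPM against 30.0 to 44.2.

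The last 2 members are targets of ATF4 outside amino acid supply, and both fell. Stc2, which encodes a secreted glycoprotein induced by stress, had 14.6, 16.8 and 16.4 CPM against 8.41, 8.25 and 7.70 (log2 fold change -0.97 ± 0.10 SE, adjusted p = 1.20e-04 by edgeR). Vldlr, the receptor of very low density lipoprotein, had 15.7, 12.9 and 12.9 CPM against 8.74, 8.22 and 6.26 (log2 fold change -0.84 ± 0.15 SE, adjusted p = 0.00225 by edgeR). In neither gene did the groups overlap, as in 59.5% of all tested genes.

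Levels can be ordered between genes only per length, in the deposited TPM, which carry no TMM factor. With IFN-γ the highest members were Ddit4 at 357 ± 26.8 TPM (SD, n = 3), Nupr1 at 351 ± 15.6 and Atf4 at 339 ± 6.42, which did not differ beyond their spread. Eif4ebp1 followed at 216 ± 23.5, then Atf3 at 162 ± 6.36 and Cebpb at 157 ± 64.0. The range of Cebpb overlapped both. With 4-OI Atf4 stood first at 493 ± 16.3 TPM, Ddit4 next at 325 ± 9.53, and Nupr1 had gone from rank 2 to rank 9 at 75.1 ± 5.30. Among the enzymes Mthfd2 was highest in both groups, at 95.3 ± 2.56 and 87.0 ± 4.64 TPM. Slc7a5 went from rank 13 to rank 19. Pycr1 and Slc7a3 reached at most 2.10 and 0.791 TPM in any library, and Cbs was last.

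Upstream of ATF4, 17 genes were tested, of eIF2, its kinases and their regulators, its exchange factor and a phosphatase partner. They split into 3 higher, 4 lower and 10 that did not pass, with a median log2 fold change of 0.03. Of the kinase genes, Eif2ak3, whose product PERK senses unfolded protein, and Eif2ak2, the double-stranded RNA sensor PKR, fell, at -0.47 and -0.34 on the log2 scale (adjusted p by edgeR 0.00864 and 0.0251). Eif2ak1, the heme-regulated kinase HRI, and Eif2ak4, the uncharged-tRNA sensor GCN2, had 0.17 and 0.13 and did not pass (adjusted p by edgeR 0.0942 and 0.385). Impact, which encodes an inhibitor of GCN2 activation, rose from 84.5 ± 14.2 to 185 ± 5.34 CPM (SD, n = 3, adjusted p = 1.75e-04 by edgeR). Of the eIF2B subunits, Eif2b2 fell (-0.76), and Eif2b4 (0.62) and Eif2b3 (0.42) rose. With total counts 2 of the 17 were higher and 9 lower.

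Other targets of ATF4 rose in part. Of 18 tested, 9 were higher and 0 lower by edgeR, DESeq2 and limma alike (11 and 0 at an unadjusted p of 0.05), with a median of 0.52, beside 22.7% higher and 25.4% lower over all genes. Sqstm1, an autophagy receptor, had a log2 fold change of 2.44, Gdf15, a stress-induced cytokine, 3.75 and Slc6a9, a glycine transporter, 3.18 (adjusted p by edgeR 2.49e-06, 3.07e-06 and 7.41e-06). Chac1, which encodes a glutathione-degrading enzyme and is a usual marker of ATF4 activity, had 2.37 ± 0.370 CPM against 3.37 ± 0.499 (SD, n = 3 per group) and did not pass (adjusted p by edgeR 0.0568). With total counts 7 were higher and 4 lower. The list was drawn from general knowledge with earlier results of these data known, and Sqstm1 and Slc7a11 are also NRF2 targets. Outside the members, 18 transporters were tested, with 9 higher and 3 lower, and with total counts 6 and 4. On both lists stand Slc3a2, Slc6a9, Slc7a1 and Slc7a11. Among the rest was Slc43a2, a carrier of large neutral amino acids like LAT1, at 0.97 (adjusted p by edgeR 7.98e-05).

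Genes that charge tRNA, many of them ATF4 targets, showed no common direction. Of 20 cytosolic synthetases 4 were higher and 4 lower, with a median of -0.01; Vars and Iars, for valine and isoleucine, fell by 1.02 and 0.64 on the log2 scale and Rars, for arginine, rose by 0.32 (adjusted p by edgeR 8.94e-05, 5.79e-04 and 0.00820). With total counts 0 of these 20 were higher and 12 lower. Of 17 mitochondrial ones 6 were higher and 3 lower, with Wars2 at 0.62, Fars2 at 0.57 and Nars2 at -0.58. With total counts 3 of these 17 were higher and 5 lower. Among the 6 with TMM factors was Lars2, whose libraries with 4-OI ranged from 262 to 2617 CPM, so its rise of 3.17 (SE 0.72) is poorly bounded.

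Of 19 further folate and glycine genes 4 were higher and 4 lower, and with total counts 2 and 5. Slc25a32, the mitochondrial folate carrier, rose from 11.8 ± 0.326 to 20.9 ± 1.14 CPM and Mat2a, which makes the methyl donor S-adenosylmethionine, from 37.4 ± 1.04 to 63.4 ± 6.09. Aldh1l1, the cytosolic counterpart of Aldh1l2, fell from 6.41 ± 0.173 to 0.844 ± 0.492 CPM (SD, n = 3 per group for each; edgeR adjusted p = 1.61e-04, 3.78e-04 and 1.62e-04). Of 16 other amino acid enzymes 5 were higher and 3 lower, against 3 and 6 with total counts, with Glul, glutamine synthetase, rising from 106 ± 2.97 to 338 ± 11.3 CPM and Got1, the cytosolic aspartate transaminase, falling from 91.5 ± 3.18 to 49.3 ± 3.16 (adjusted p by edgeR 2.98e-06 and 8.33e-05). Of 23 genes of mTORC1 and its amino acid sensors 8 were higher and 5 lower, with a median of -0.08, and with total counts 4 and 10. Rragd, a Rag GTPase that recruits mTORC1 to the lysosome, rose from 6.13 ± 0.113 to 31.0 ± 1.08 CPM, and Rheb, which activates the kinase, from 77.3 ± 9.18 to 119.9 ± 3.74. Castor1, the arginine sensor that holds it in check, fell from 38.9 ± 5.88 to 21.4 ± 0.695 (adjusted p by edgeR 1.96e-06, 0.00146 and 7.35e-04). Mtor, the gene of the kinase itself, also fell, from 54.1 ± 13.7 to 36.9 ± 3.84 CPM (adjusted p by edgeR 0.0321). The activity of the complex was not measured.

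**Figure D5:**
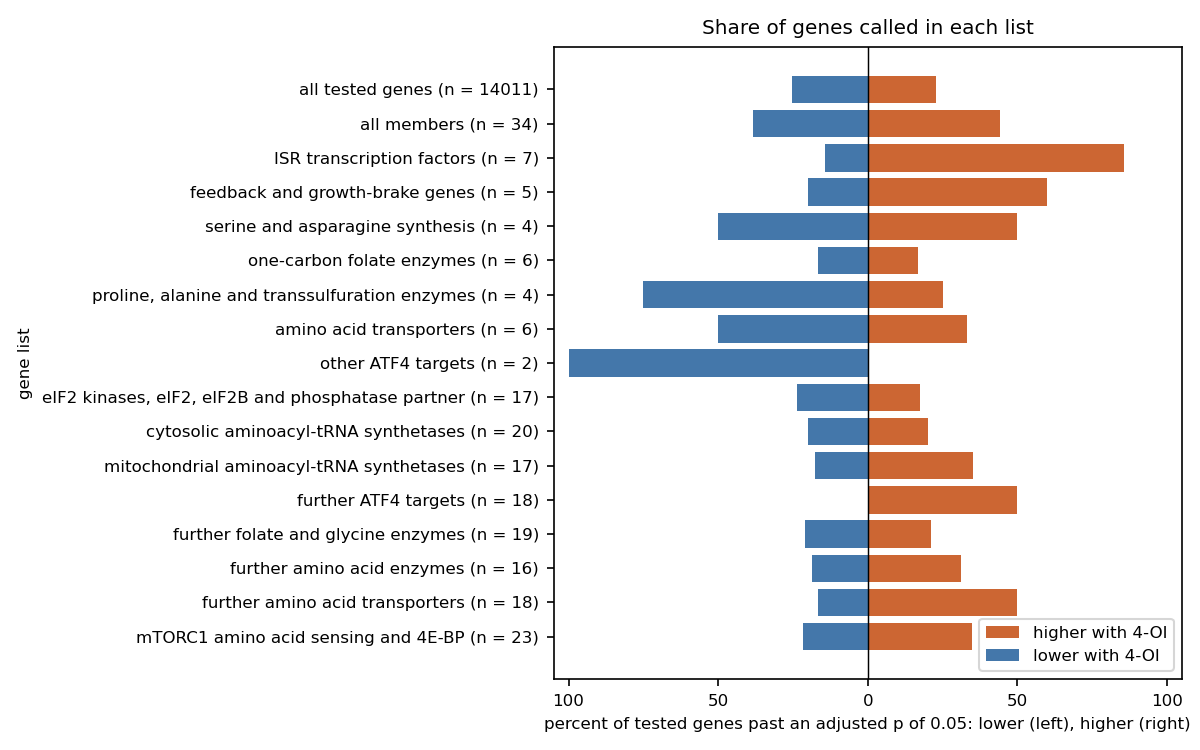
Share of tested genes past an adjusted p of 0.05 as lower (left) or higher (right) with 4-OI (horizontal axis, percent) in each list (vertical axis, with the number tested). All tested genes stand at 25.4% and 22.7%. The transcription factors reach 85.7% higher, or 6 of 7, with TMM factors, against 4 of 7 with total counts. Of the further ATF4 targets 0 are lower with TMM factors and 4 with total counts.

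Markers of dividing cells and of other cell types moved in the same comparison, and their part in the members' changes was not tested. Of 16 proliferation genes 13 were lower, with a median log2 fold change of -2.14 and a summed level of 689 to 820.4 CPM with IFN-γ and 278 to 298 with 4-OI. Markers of mast cells and basophils fell in 7 of 7 tested cases (346 to 378 against 106 to 114 CPM), although Mcpt4 had no count and Tpsb2 had 8 over all libraries. Of 9 monocyte markers 2 were higher and 5 lower (3547 to 3930.1 against 3231 to 3350.5 CPM), of 11 neutrophil markers 2 and 7 (1675 to 2400.2 against 1995.5 to 2725), and of 6 eosinophil markers 2 and 3 (149 to 202 against 71.6 to 80.3). For macrophages 1 of 10 was higher and 2 lower (1471 to 1503 against 1938 to 1975). The labels name dendritic cells, and markers of conventional dendritic cells were present in part. Itgax had 514 and 214 CPM, Flt3 16.2 and 10.0, and Xcr1 only 0.405 and 0.709. In this list 8 of 11 tested markers fell (1555 to 1604 against 1189.6 to 1210.5), while 1, Clec9a, rose from 9.54 to 35.6 CPM. Cd209a had 7 counts in all. For B cells 0 of 5 tested markers were called by edgeR, by DESeq2 or by limma, 0 had an unadjusted p under 0.05, and 4 were lower with total counts (9.81 to 10.5 against 7.81 to 9.05), and 1 of 1 tested T and NK cell marker, Cd3g, fell (8.07 to 10.6 against 4.13 to 5.40). Stromal markers summed to 4.04 to 40.9 CPM with IFN-γ, highest in replicate 1, and to 1.52 to 2.18 with 4-OI, with 1 of 2 tested lower.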

How the data were processed

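Libraries came from a kit that keeps strand, per the labels. For each sample the authors deposited a table of counts, FPKM and TPM over 36706 genes, per the file headers. HISAT2 and mm10 are named in the submitters' processing notes; the sources used here do not give counter, strand setting or annotation. Deposited TPM and FPKM were recomputed from counts and lengths and matched in 100% of values (relative tolerance 1e-06). Only 1 member shares a start or end with RefSeq GRCm38 and 24 have its span, so positions are printed as in the tables, whose assembly may differ.

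The main test was that of edgeR 4.0.16 under R 4.3.3 on the counts (filterByExpr with minimum count 10, TMM, robust quasi-likelihood test). SEs are the log2 fold change over the root of F. The pipeline was tested on simulated data. Alternatives were RLE, upper quartile and no factors, no filter, 1 CPM in 3 libraries, DESeq2 1.42.0, limma 3.58.1 voom, the replicate block, each library left out, a threshold of 0.01 and other motifs. Leaving out both libraries that stood apart was chosen after seeing the data. Members and lists were chosen with earlier results of these data known. Members described in full are all that passed with at least 1 CPM in a group mean, and those that did not pass with at least 10 CPM; the other 3, Shmt1, Aldh1l2 and Cbs, are named with their range, test or counts. Of each pathway list up to 3 genes with the smallest adjusted p are named, and partners named in advance. Eif2b3, Lars2, Mtor, Slc7a1, Slc7a2 and the marker genes named were chosen after their values were seen. Castor3 is not analysed here. Replicate pairs differed by at least 4.07 in chi-square per gene, beyond sampling noise.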

Additional observations from a re-analysis of the deposited data

How the results depend on the processing

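Over 15 alternatives, 470 of 510 recomputed fold changes of members had the direction and call of the reported fit, 25 lost their call, 8 gained one and 7 changed sign without passing. Members passing as higher numbered 8 with total counts, 9 at an adjusted p of 0.01 and 12 to 15 without single libraries; 13 passed as lower in each of these except 15 with total counts. Over all genes, 1719 were higher and 5452 lower with total counts, 2079 were higher at 0.01, and without single libraries 5275 to 7835 passed. The sign changes were those of Ddit4 (-0.014), Mthfd2 (-0.012) and Aldh1l2 (-0.049) with total counts, and of Mthfd1l without IFN-γ replicate 3 or 4-OI replicate 3 (-0.057 to 0.011 over single libraries left out). Leaving out the 2 libraries that stood apart turned Mthfd1l (0.0019) and Slc38a1 (0.0070). The core motif stood before 5 members, its longer form before 2 and the palindrome before 1. With the replicate block 17 members passed as higher and 13 as lower; replicate numbers are not stated to pair samples, and the deviations of same-numbered libraries correlated at 0.26, -0.10 and 0.19. Slc7a3 and Pycr1 were the called members with the fewest counts. The causes of these changes were not tested.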

Other observations

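The member with the largest rise, Mthfd2l, lies beside a cluster of chemokine and growth factor genes that also rose. In the coordinates of the tables it spans chromosome 5, 91078704 to 91169227, plus strand. All 8 other tested genes within 200 kb of it were higher with 4-OI by edgeR: Cxcl5, Ppbp, Pf4, Cxcl3, Cxcl1, Cxcl2, Ereg and Areg. The nearest on one side, Cxcl2, a chemokine for neutrophils at 91051758 to 91053797, went from 447 ± 65.3 to 4911 ± 612 CPM (SD, n = 3 per group). On the other the nearest tested gene was Ereg, an EGF receptor ligand at 91222476 to 91241508, which rose by 3.29 on the log2 scale (adjusted p by edgeR 2.01e-05), and beyond it lay Areg at 2.79. Of the one-carbon enzymes, Mthfd2l was thus the only member that passed as higher, at 1.73, below the values of these neighbours other than Pf4 at 1.36. The neighbourhood was looked at after the value of Mthfd2l was seen, and what the genes share was not tested.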
